A study of Mus musculus with 18 samples.

Results

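Antimicrobial peptides and proteins of the skin were followed in dorsal skin of male albino hairless HR-1 mice, labelled as 6 weeks old. The set was fixed by name and held 10 genes: the beta-defensins Defb1, Defb3, Defb4, Defb6 and Defb14, the cathelicidin Camp, the lipocalin Lcn2, lactoferrin (Ltf), the peptidoglycan recognition protein Pglyrp1 and the lectin Reg3g. On the Affymetrix mouse genome array, 9 of the 10 genes were represented by 10 of 45101 probe sets, and Defb14 had no probe set under that symbol in the annotation used here. Only 6 of the 10 probe sets, from 5 genes, ranged by at least 0.01 log2 over the 18 arrays. The probe sets of Defb4, Camp, Ltf and Pglyrp1 held 1 constant value on every array and gave no information on these genes in any direction, as did 73.5% of all probe sets tested.

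The 18 arrays formed 3 groups of 6, labelled as biological replicates. NT mice were not stripped. On the left dorsal side of TS mice, cellophane tape was applied and pulled off in 3 sessions a week over 4 weeks, until water loss through the epidermis reached 70 to 100 g/m2/h. WB mice were stripped likewise and took an oral extract of winged bean, 200 mg/kg a day in 0.3% carboxymethylcellulose, on 5 days a week for 5 weeks, the first of them before stripping began. The labels do not say whether NT and TS mice received the vehicle. All groups were of the same strain, sex and diet.

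Epidermis makes antimicrobial peptides as a chemical barrier. Beta-defensins are small cationic, disulphide-bonded peptides that disrupt microbial membranes; some are made constitutively and others are induced by microbes, injury and cytokines such as interleukin 1, interleukin 17 and interleukin 22. Cathelicidin, lactoferrin, Pglyrp1 and Lcn2 are also stored in neutrophil granules. Lcn2 starves bacteria of iron by binding siderophores, and Reg3g is a lectin that binds peptidoglycan of Gram-positive bacteria.

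Values are the deposited log2 values, ± is the SD over 6 arrays, and adjusted p is from limma with Benjamini-Hochberg adjustment over all 45037 probe sets tested. A gene is said to rise or fall where adjusted p was under 0.05 and the difference at least 0.01. The epidermal keratins Krt10 and Krt14 averaged 13.54 and 13.47 in NT, and Krt10 averaged 14.22 and Krt14 11.28 in WB. Array medians were near 6.94 in NT and TS and 6.90 in WB. As the table holds no measure of background, no fold is given where the mean or the median of the lower group lay under the median of its arrays. That median is taken over all probe sets, most of them constant, and is a mark of level and not a measure of signal. The control probe sets for the ends of beta-actin give a 3' minus 5' difference, which grows as labelled RNA is confined to the 3' end. NT arrays lay between -0.65 and -0.38, TS arrays between 0.08 and 0.26 and WB arrays between 5.27 and 5.96. The difference between TS and NT was 0.66 and that between WB and TS was 5.53 (exact permutation test, two-sided, p = 0.00216 each, which is the lowest value possible with 6 arrays a group, and 0.0026 adjusted over 6 such comparisons). For the Gapdh control probe sets the same differences were 0.15 and 4.14 (adjusted p = 0.0476 and 0.0026, same test). Every TS and WB result stands beside these differences, and their part in the results was not tested. On NT 5 the liver transcript Alb stood at 19.04, but all 6 varying probe sets had values on NT 5 within the range of the other NT arrays.

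Defb3 and Defb6 are neighbours in the beta-defensin cluster of chromosome 8, with 2 protein-coding genes, Defb46 and Defb5, between them, and their differences between TS and NT were 2.63 and 0.01 log2. The 250 bases before their annotated starts are shown for these neighbours, which were 74% identical over 265 aligned columns, and that of Lcn2, on chromosome 2, is set beside them. Sequences are from RefSeq (GRCm38.p6, the C57BL/6J reference and not HR-1), read 5′ to 3′, and capitals mark motif matches.
Defb3 promoter, chr8:19293111-19293360, plus strand: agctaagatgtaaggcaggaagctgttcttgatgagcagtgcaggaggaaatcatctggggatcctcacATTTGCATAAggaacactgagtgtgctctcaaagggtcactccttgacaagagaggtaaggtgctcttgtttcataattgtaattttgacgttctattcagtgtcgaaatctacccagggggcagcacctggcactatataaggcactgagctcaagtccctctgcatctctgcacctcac
Defb6 promoter, chr8:19225228-19225477, plus strand: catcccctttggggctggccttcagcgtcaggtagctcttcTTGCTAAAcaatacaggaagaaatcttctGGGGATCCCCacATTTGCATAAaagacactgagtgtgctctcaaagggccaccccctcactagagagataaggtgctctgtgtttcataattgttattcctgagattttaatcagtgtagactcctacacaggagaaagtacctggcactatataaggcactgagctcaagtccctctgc
Lcn2 promoter, chr2:32387740-32387989, minus strand: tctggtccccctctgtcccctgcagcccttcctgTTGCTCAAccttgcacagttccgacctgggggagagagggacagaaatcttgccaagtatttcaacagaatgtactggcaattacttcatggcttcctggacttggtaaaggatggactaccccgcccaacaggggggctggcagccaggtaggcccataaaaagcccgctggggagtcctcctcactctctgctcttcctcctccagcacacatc

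Motifs were searched on both strands. A C/EBP core, TTGCNNAA, which 9.56% of 32851 promoter windows of that length hold, occurred in all 3 windows, at TTGCATAA in Defb3, at TTGCTAAA and TTGCATAA in Defb6 and at TTGCTCAA in Lcn2. In Defb3 and Defb6 it overlapped an octamer, ATTTGCAT, which 1.6% of windows hold. The NF-kappaB consensus, held by 7.25% of windows, occurred in Defb6, at GGGGATCCCC. A STAT motif, TTCNNNGAA (7.02% of windows), and an AP-1 motif, TGANTCA (6.75%), had no match in these 3 windows. Of the 10 genes, 7 had an entry in the promoter table. Over these 7 the C/EBP core occurred in 4 (Ltf was the other), the octamer in 2, the NF-kappaB consensus in 3 (Pglyrp1 and Reg3g were the others), and the STAT and AP-1 motifs in 0. Reg3g held no match of the C/EBP core. A match is a likeness of letters and was not tested for binding.

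Stripped skin held more transcript of Defb1 and Defb3, while Defb6 and Reg3g were not called and Lcn2 missed the threshold. Of the 6 varying probe sets 3 were called in TS against NT, all higher, and none lower. Over the array, 10.1% of all tested probe sets and 38.1% of the 11946 varying ones were called in this comparison, 18.7% of the varying ones higher and 19.4% lower. Of the 3 called probe sets 2 are of Defb1. By gene, 2 of the 5 varying members were called, a share near that of the varying probe sets. Both probe sets of Defb1, 2 of the 6, did not overlap between TS and NT, beside 24.9% of the varying probe sets.

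**Figure D1:**
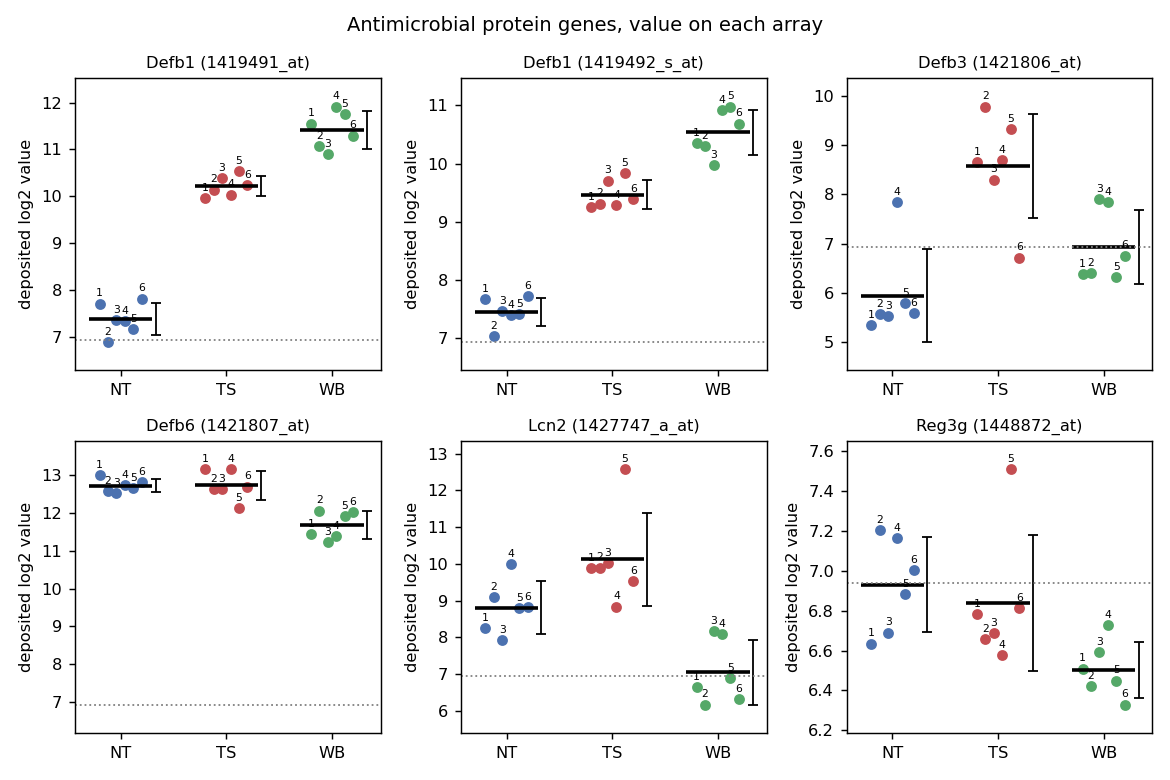
Deposited log2 value (y axis) of the 6 varying probe sets on each array, with the replicate number beside each point, in NT, TS and WB (x axis). Horizontal bars are group means, vertical bars ± 1 SD over 6 arrays, and the dotted line is the median array median, 6.94. Defb1 separates all 3 groups in order, Defb6 is lower in WB alone, and NT 4 in the Defb3 panel and TS 5 in the Lcn2 and Reg3g panels stand apart.

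Defb1 encodes beta-defensin 1, the family member usually described as constitutive in epithelia. By probe set 1419491_at it ranged from 6.90 to 7.82 in NT (median 7.35), from 9.96 to 10.54 in TS (median 10.19) and from 10.89 to 11.91 in WB (median 11.42). The groups did not overlap, and every array followed the order NT, TS, WB. The group means were 7.39 ± 0.34, 10.22 ± 0.22 and 11.41 ± 0.40 (n = 6 each). Defb1 rose by 2.83 in TS against NT (SE 0.19, 7.12-fold, 95% interval 5.39 to 9.41, adjusted p = 2.4e-07).

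The other probe set of Defb1, 1419492_s_at, whose suffix marks probes shared by more than 1 transcript, gave the same order without overlap. It ranged from 7.04 to 7.73 in NT (median 7.44), from 9.25 to 9.84 in TS (median 9.35) and from 9.97 to 10.98 in WB (median 10.52). It rose by 2.01 in TS against NT (SE 0.17, 4.04-fold, 95% interval 3.12 to 5.21, adjusted p = 2.8e-06). Within groups both probe sets ranked the arrays much alike, with r of 0.97 in NT, 0.96 in TS and 0.86 in WB over 6 arrays each, a description of 2 measures of the same RNA.

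Defb3 encodes an inducible beta-defensin of epithelia. It ranged from 5.35 to 7.85 in NT (median 5.58), from 6.72 to 9.78 in TS (median 8.67) and from 6.32 to 7.90 in WB (median 6.58). Of the 6 NT arrays, 5 lay at or below 5.80 and NT 4 stood at 7.85, while in TS the array TS 6, at 6.72, lay below the other 5, so that the groups overlapped. Defb3 rose by 2.63 in TS against NT (SE 0.53, 95% interval 1.50 to 3.75, adjusted p = 0.00271), from 5.95 ± 0.94 to 8.58 ± 1.05. The NT mean lies under the array median, and no fold is given.

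Defb6 encodes a beta-defensin known from skin and skeletal muscle. It ranged from 12.52 to 13.00 in NT (median 12.70), from 12.12 to 13.15 in TS (median 12.66) and from 11.23 to 12.05 in WB (median 11.67). NT and TS overlapped almost throughout, and all WB arrays lay below both. The difference between TS and NT was 0.01 (SE 0.19) with a 95% interval from -0.39 to 0.40, so that a change of more than 0.40 in either direction lay outside the interval (adjusted p = 1). Of 9 skeletal muscle markers 8 fell in the same comparison, with a summed level between 111.6 and 128.4 in NT and between 91.7 and 99.9 in TS.

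Lcn2 encodes lipocalin 2, which is made by stimulated keratinocytes and by neutrophils. It ranged from 7.92 to 9.99 in NT (median 8.81), from 8.84 to 12.57 in TS (median 9.89) and from 6.16 to 8.16 in WB (median 6.76). TS 5 stood at 12.57 where the next TS array was at 10.01, and NT and TS overlapped. TS exceeded NT by 1.31 (SE 0.57, 95% interval 0.10 to 2.52), which did not pass (adjusted p = 0.156). Among varying probe sets alone it came nearer the threshold but did not pass either (adjusted p = 0.0568). Without TS 5 the difference was 0.82 (adjusted p = 0.288). An exact permutation test of this gene alone, two-sided and unadjusted, gave p = 0.0346.

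Reg3g, known mainly from intestinal epithelium and from injured or inflamed epidermis, stayed near the array median. It ranged from 6.63 to 7.20 in NT (median 6.94), from 6.58 to 7.51 in TS (median 6.74) and from 6.33 to 6.73 in WB (median 6.48). The difference of TS from NT was -0.09 (SE 0.15, 95% interval -0.40 to 0.22, adjusted p = 0.894). In TS all arrays but TS 5 lay at or below 6.81, and without TS 5 the difference was -0.23 (adjusted p = 0.192).

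The constant probe sets included those of Camp, Ltf and Pglyrp1, 3 of the members stored in neutrophil granules. Of 12 neutrophil marker genes on the array only 2, Mpo and Csf3r, varied at all, and neither was called in TS against NT. Their summed log2 level lay between 15.10 and 15.98 in NT, between 14.88 and 15.62 in TS and between 14.75 and 15.31 in WB. The probe sets of 16 other beta-defensins on the array were constant as well, a count made after the values were seen. In bulk skin, a change in the share of a cell type and a change in RNA per cell cannot be told apart. Beside the rises of Defb1 and Defb3, 7 of 10 suprabasal keratinocyte markers rose and none fell, and their summed level lay between 113.7 and 119.6 in NT and between 122.5 and 128.1 in TS. Of 6 wound keratinocyte markers 5 rose and none fell, with a summed level between 54.5 and 60.6 in NT and between 75.1 and 83.7 in TS. Of 5 adipocyte markers 4 fell and none rose, with a summed level between 56.2 and 59.6 in NT and between 48.3 and 52.2 in TS. Of 8 varying hair follicle and sebaceous markers 6 fell and none rose. The part of these cells in the rises was not tested.

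**Figure D2:**
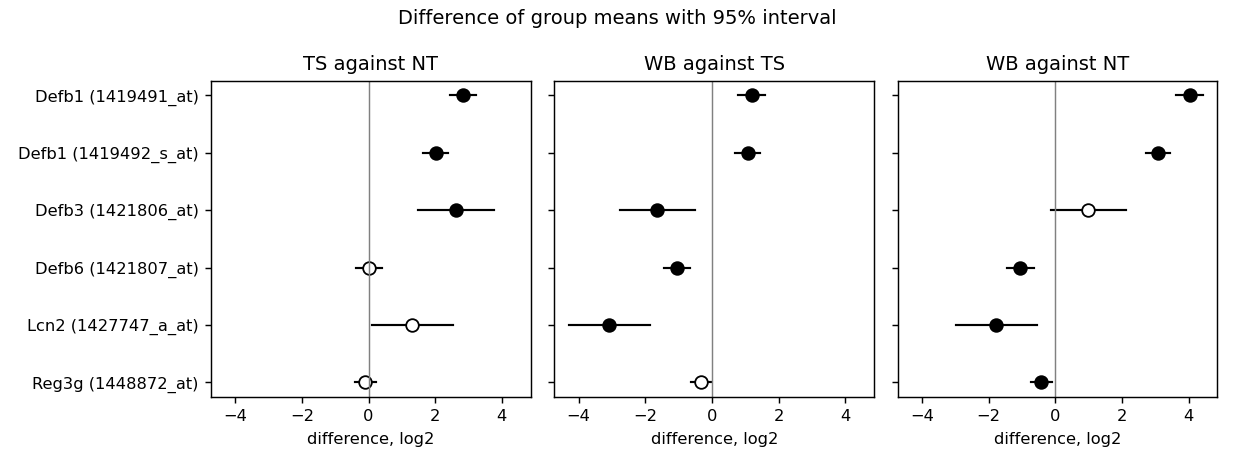
Difference of group means (x axis, log2) of the 6 varying probe sets (y axis) in TS against NT, WB against TS and WB against NT, with 95% intervals from limma. Filled points passed at adjusted p under 0.05. Both Defb1 probe sets lie to the right of 0 in all 3 panels, whereas Defb3 and Lcn2 lie to the right in TS against NT and to the left in WB against TS.

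The comparison of WB with TS asked how the transcripts differed with the extract in stripped skin. Defb1 was higher on WB arrays, and Defb3, Defb6 and Lcn2 were lower. Of the 6 varying probe sets 5 were called, 2 higher and 3 lower. Across the array, 23.6% of all probe sets and 88.8% of the varying ones were called in this comparison, 47.1% of the varying ones higher and 41.7% lower, so the share of members called is near that of the background. The 3' minus 5' difference of beta-actin was 5.53 higher in WB than in TS.

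Defb1 rose further by 1.19 in WB against TS (SE 0.19, 2.29-fold, 95% interval 1.73 to 3.02, adjusted p = 5.9e-05) by its first probe set and by 1.07 (SE 0.17, adjusted p = 7.7e-05) by the other. Neither overlapped between the groups. Over the array 77.6% of varying probe sets did not overlap between WB and TS, as against 4 of the 6 here. Against NT the first Defb1 probe set was 4.03 higher in WB (SE 0.19, 16.3-fold, 95% interval 12.3 to 21.5, adjusted p = 3.0e-11). The other was 3.08 higher (SE 0.17, 8.46-fold, 95% interval 6.55 to 10.9, adjusted p = 2.9e-10). The size of this fold thus depends on the probe set. By the first probe set, 1 of the 6 NT arrays lay under its own array median.

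Lcn2 showed the largest fall of the set in WB against TS, by 3.08 (SE 0.57, 95% interval -4.29 to -1.87, adjusted p = 0.000258), from 10.12 ± 1.28 to 7.04 ± 0.88. Of the 6 WB arrays 4 lay under their own array median, and WB 3 and WB 4 above it, so no fold is given. All WB arrays lay below all TS arrays. Against NT it fell by 1.77 (SE 0.57, adjusted p = 0.0169), with WB 3 and WB 4 inside the NT range. Without TS 5 it fell by 2.59 against TS.

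Defb3 fell by 1.64 in WB against TS (SE 0.53, 95% interval -2.77 to -0.51, adjusted p = 0.0181). Of the 6 WB arrays 4 lay under their own array median, so no fold is given. The groups overlapped, with WB 3, WB 4 and WB 6 above the lowest TS array. WB exceeded NT by 0.99 (SE 0.53, 95% interval -0.14 to 2.11), which did not pass (adjusted p = 0.147). That comparison passed without NT 4, at a difference of 1.37 (adjusted p = 0.0261), and after quantile normalization, at 1.15 (adjusted p = 0.0492). Among varying probe sets alone it did not pass (adjusted p = 0.0745).

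Defb6 fell by 1.05 in WB against TS (SE 0.19, 2.08-fold, 95% interval 1.58 to 2.73, adjusted p = 0.000161) and by 1.05 against NT (SE 0.19, adjusted p = 0.000165).

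Markers of several cell types also differed between WB and TS. Of the 9 skeletal muscle markers 7 fell and none rose, and their summed level lay between 56.8 and 74.6 in WB. Of the 6 wound keratinocyte markers 4 fell and none rose, with a summed level between 61.2 and 72.3 in WB. Of 7 basal keratinocyte markers 5 fell and 2, Trp63 and Itga6, rose by 1.35 and 0.35, and the summed level lay between 75.3 and 78.9 in TS and between 67.5 and 72.5 in WB. Of the 10 suprabasal markers 2 rose and 3 fell. Of 11 macrophage markers 8 fell and 2, Csf1r and C1qb, rose by 0.58 and 0.89, and the summed level lay between 110.5 and 115.0 in TS and between 97.5 and 102.4 in WB. Of the 5 adipocyte markers 3 fell and 1 rose, with a summed level between 42.0 and 44.4 in WB. Of the 8 varying hair follicle and sebaceous markers 5 rose and 1 fell. Their part in the WB results was not tested.

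Reg3g differed by -0.33 in WB against TS (SE 0.15, adjusted p = 0.0757), and by -0.20 without TS 5 (adjusted p = 0.147). It fell by 0.43 against NT (SE 0.15, adjusted p = 0.0239). This call was lost without NT 2 (adjusted p = 0.0575), NT 4 (0.0555) or WB 6 (0.0522). Of the 6 varying probe sets 5 were called in WB against NT, 2 higher and 3 lower, beside 23.7% of all tested and 89.3% of varying probe sets, 45.7% of the varying ones higher and 43.6% lower. Between WB and NT 3 of the 6 did not overlap, as did 81.7% of varying probe sets. The comparisons share their groups and are therefore not independent of each other.

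The levels of the 5 genes thus followed different orders over the groups. Defb1 went NT, TS, WB from low to high, with each step called. Defb3 was highest in TS, while NT and WB did not differ beyond the threshold. Lcn2 was lowest in WB, while NT and TS did not differ beyond it. Defb6 was lower in WB than in both other groups, and Reg3g differed by a call only between WB and NT.

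Within groups, members were set against each other and against the beta-actin 3' minus 5' difference over the 6 arrays, 45 relations in all. None passed after adjustment (smallest adjusted exact permutation p = 0.213), and 9 had an unadjusted exact p under 0.05, where the smallest p that 6 arrays allow is 0.00278. Lcn2 and Reg3g had r of 0.86 in NT (rho 0.89, exact p = 0.0236 and 0.0333), 0.95 in TS (rho 0.49, exact p = 0.0389 and 0.356) and 0.88 in WB (rho 0.83, exact p = 0.0181 and 0.0583). The adjusted p of these 3 values of r were 0.213, 0.219 and 0.213, and those of rho were 0.25, 0.699 and 0.375. Leaving out the 2 arrays farthest from the median of Lcn2 gave r of 0.97 in NT, -0.74 in TS and 0.56 in WB, so that the relation in TS rests on those arrays, TS 5 among them. In NT, Reg3g also had an r of -0.92 with the beta-actin 3' minus 5' difference (rho -0.94, exact p = 0.0125 and 0.0167, adjusted 0.213 and 0.25), and -0.99 without the 2 arrays farthest in Reg3g. Lcn2 had an r of -0.76 with the same difference in NT (rho -0.94, exact p = 0.0694 and 0.0167, adjusted 0.24 and 0.25). Defb6 had an r of -0.92 with Defb1 in TS (exact p = 0.0167, adjusted 0.213). With Lcn2 it had -0.84 in TS and -0.83 in WB (exact p = 0.0208 and 0.0472, adjusted 0.213 and 0.225). Without the 2 arrays farthest in Lcn2 these were 0.06 and -0.47. With Reg3g, Defb6 had -0.83 in WB (exact p = 0.0375, adjusted 0.219). Defb3 and Lcn2 had 0.84 in NT (exact p = 0.0389, adjusted 0.219). This was 0.63 without the 2 farthest in Lcn2 and 0.34 without the 2 farthest in Defb3. The same pair had 0.38 in TS (exact p = 0.368, adjusted 0.655) and 0.91 in WB (exact p = 0.05, adjusted 0.225). In WB it was -0.55 without the 2 arrays farthest in either gene.

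**Figure D3:**
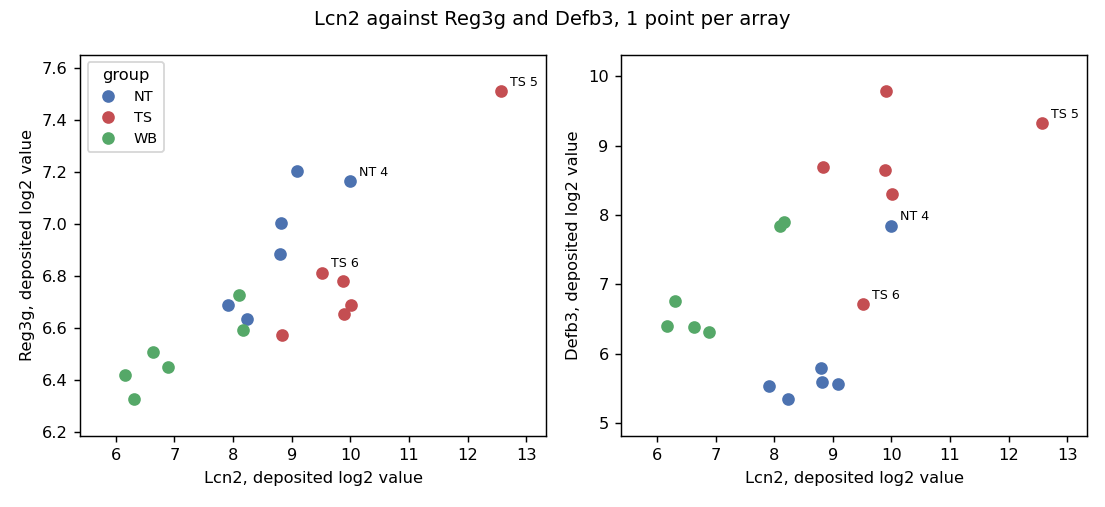
Lcn2 (x axis, deposited log2 value) against Reg3g (left, y axis) and Defb3 (right, y axis), 1 point per array, coloured by group. TS 5 stands at the top right of the Reg3g panel at 12.57 and 7.51, and NT 4 lies above the other NT arrays in the Defb3 panel at 7.85.

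The genes whose varying probe set followed each member most closely over the 12 NT and TS arrays were found among 7443 genes by Pearson's r, which includes the difference between the groups and is given as a description. For Defb1 (probe set 1419491_at) they were Gsto1 (r = 0.99), Grip1 (0.98) and Tmigd1 (0.98), and the same 3 genes led for its other probe set. For Defb3 they were Wbp4 (0.93), the mast cell tryptase Tpsab1 (0.91) and Luc7l2 (0.91). For Lcn2 they were Tcim (0.94), Spink12 (0.93) and the acute-phase protein gene Saa3 (0.92). For Reg3g they were the chemokine Cxcl12 (0.94), Reg1 (0.89) and Il1b (0.87), and for Defb6 they were Bcl6 (0.88), Stx17 (0.88) and Cs (0.86).

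Of 30 other genes of antimicrobial and host defence proteins, 24 were on the array and 19 varied. In TS against NT 3 rose and 3 fell, and the median difference of the varying ones was -0.17, against 0.00 over all varying probe sets. The protease inhibitor Wfdc12 rose from 8.03 ± 0.38 to 12.27 ± 0.39, by 4.24 (SE 0.22, adjusted p = 1.1e-08). The lysozymes Lyz1 and Lyz2, near-identical copies that probes may not separate, fell by 0.51 (SE 0.10, adjusted p = 0.00173) and by 0.59 (SE 0.13, adjusted p = 0.00482). The other calls, named after their values were seen, were Chil1 (0.31, SE 0.10), Dmkn (0.21, SE 0.07) and the epithelial cytokine Tslp, which fell by 0.85 (SE 0.21). Macrophages make lysozyme, and 7 of 11 macrophage markers also fell and 1 rose, with a summed level of 115.6 to 121.9 in NT and 110.5 to 115.0 in TS; their part in this was not tested.

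**Figure D4:**
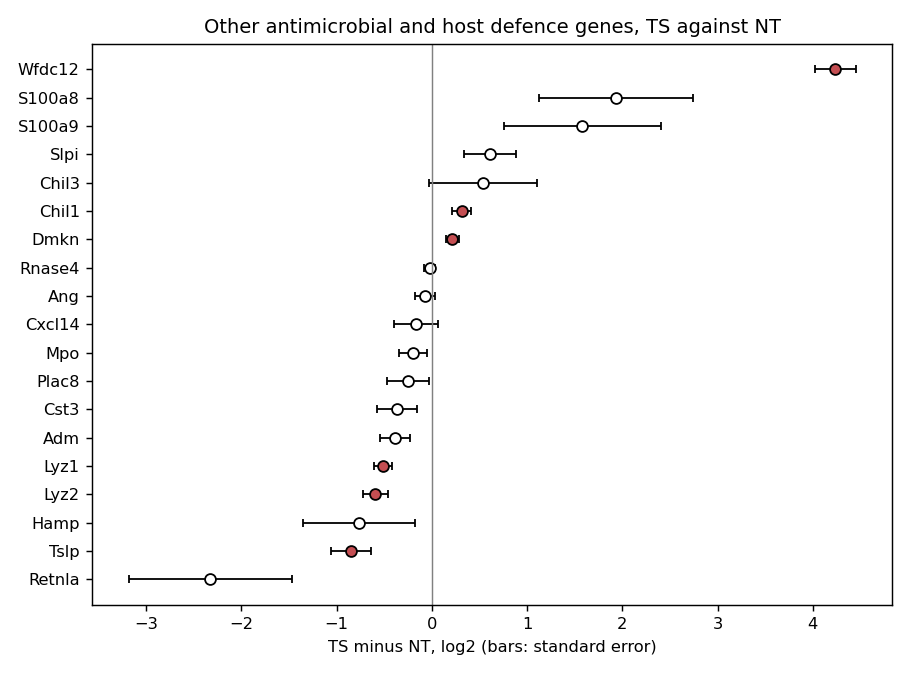
Difference of TS from NT (x axis, log2, bars ± 1 standard error) of the 19 varying genes of the list of other antimicrobial and host defence proteins (y axis). Filled points passed at adjusted p under 0.05. Wfdc12 lies far to the right at 4.24, while Lyz1, Lyz2 and Tslp are the filled points to the left of 0.

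Of 22 cytokines and growth factors listed for a link to epithelial defensins, not all of them known inducers, 17 were on the array and 6 varied. In TS against NT 4 rose and none fell, with a median of 1.76. These were Ereg, the epidermal growth factor receptor ligand epiregulin, which rose by 4.05 (SE 0.26, adjusted p = 1.3e-07), and 3 genes of the Il36 family, listed under their older names: Il1f6 by 2.77 (SE 0.22, adjusted p = 1.5e-06), Il1f9 by 1.75 (SE 0.16, adjusted p = 5.5e-06) and Il1f8, named after its values were seen, by 1.76 (SE 0.18). In WB against TS 4 fell and none rose, among which Il1f9 fell by 3.69 and Il1f8 fell by 3.26, while Ereg differed by 0.52 without a call (adjusted p = 0.114). Il17a was constant and Il22 is not analysed here.

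Of 28 receptors and sensors that act upstream of the members or bind them, 26 were on the array and 13 varied. In TS against NT 1 rose and 3 fell, with a median of 0.03. The interleukin 17 receptor subunit Il17rc rose by 0.49 (SE 0.08, adjusted p = 0.000639). The formyl peptide receptor Fpr2, which binds the cathelicidin peptide, fell by 1.15 (SE 0.17, adjusted p = 0.00025), and the vitamin D receptor Vdr, which drives the human cathelicidin gene, fell by 0.34 (SE 0.07, adjusted p = 0.00268).

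Of 18 transcription factors and other regulators linked to the induction of these genes, 16 were on the array and 13 varied. In TS against NT 5 rose and 1 fell, with a median of 0.19. Ovol1 rose by 1.04 (SE 0.13, adjusted p = 6.6e-05), Grhl3 by 0.92 (SE 0.13, adjusted p = 0.000192) and Klf4 by 0.73 (SE 0.11, adjusted p = 0.000381), all known from epidermal differentiation. Of the genes whose proteins bind C/EBP motifs, Cebpb rose by 0.34 (SE 0.07, adjusted p = 0.00179), while Cebpa and Cebpd, named after their values were seen, differed by -0.01 and 0.19 without a call (adjusted p = 1 each). In WB against TS, where Defb3, Defb6 and Lcn2 fell, Cebpb rose by 0.79 (SE 0.07, adjusted p = 3.7e-08) and Cebpd by 2.04 (SE 0.47, adjusted p = 0.0018), and Cebpa fell by 1.91 (SE 0.15, adjusted p = 1.5e-08).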

How the data were processed

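The authors' deposited table holds 1 log2 value per probe set and array, made from 100 ng total RNA labelled as biotinylated cRNA, per the labels' protocols. Their summarisation, normalization and log base are not stated in these sources. With a range from 2.93 to 19.04 they were read as log2, and folds rest on that. After 64 control probe sets were left out, 45037 entered 1 linear model of all 18 arrays (limma 3.58.1, R 4.3.3; lmFit then eBayes, two-sided tests, no covariate). In the platform annotation 34945 of them have 1 gene symbol, 932 several and 9160 none; no gene was named from several. Members are given by every probe set, and genes of other lists by the probe set with the highest mean. From each list, at most the 3 genes with the smallest p in TS against NT were named, plus genes set beside a member and genes named after their values were seen. The members and lists were chosen with earlier results of these data known. The fit was tested on simulated data with independent normal noise and shifts planted in TS only. These held no outlying arrays and no difference in RNA quality between groups, so they do not speak to either. Alternatives were quantile normalization, median centring, 2 filters, array weights, pairwise fits, a replicate block, leaving out each array and, added after seeing the data, an exact permutation test.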

Additional observations from a re-analysis of the deposited data

Results flagged for a closer look

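Of 18 sets of 6 arrays (6 varying probe sets in 3 groups), 3 held an array whose gap to its nearest neighbour exceeded 0.625 of the whole range, the 95% critical value of Dixon's test for 6 samples; chance alone gives about 1 in 20. Defb3 stood at 7.85 on NT 4, where the next NT array was at 5.80. Lcn2 stood at 12.57 on TS 5 against 10.01 on the next TS array. Reg3g stood at 7.51 on the same array, TS 5, against 6.81.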

How the results depend on the processing

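The number of member probe sets called kept within 1.5 times under every alternative but the exact test, for which it was not counted. Outside that test it was 3 in TS against NT, 5 to 6 in WB against TS and 4 to 6 in WB against NT. By the exact test, unadjusted, Lcn2 also passed in TS against NT (p = 0.0346). Of 465 values of single probe sets under alternatives, 451 kept their direction and side of the threshold, 6 newly passed, 3 no longer passed and 5 turned in direction. The turned ones were all of Defb6 in TS against NT, which ranged from -0.077 to 0.13 with single arrays left out and was never called. Besides those given above, Reg3g in WB against TS passed after quantile normalization (-0.31, adjusted p = 0.0413), among varying probe sets alone (0.0329) and by the exact test (p = 0.0173). The filter on dim probe sets left Reg3g out. Among varying probe sets alone the difference of Reg3g stayed at -0.33, and only the probe sets fitted and adjusted over were other. The cause of the other changes was not tested.

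With the replicate number as a block, 3, 5 and 5 probe sets were called in TS against NT, WB against TS and WB against NT, as without it. Deviations of same-numbered arrays correlated at -0.13 to 0.13, -0.27 to 0.05 and -0.05 to 0.14 in these comparisons, and 2, 0 and 4 of 6 arrays correlated best with their own number, so the numbers were not taken to pair mice. The number of arrays limits the precision, and signal over background is unknown.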

Other observations

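The calprotectin genes S100a8 and S100a9, whose protein withholds metal ions from microbes, and the acute-phase gene Saa3 were looked at by array after the values of Lcn2 and Defb3 were seen. S100a8 was highest on NT 4 (12.03, NT median 8.23), on TS 5 (12.56, TS median 10.90) and on WB 3 (12.29, WB median 9.77). S100a9 was highest on the same 3 arrays, at 12.08, 12.92 and 9.30. Saa3 was highest on NT 4 (11.21), TS 5 (14.82) and WB 4 (14.75). Lcn2 was highest on NT 4, TS 5 and WB 3 as well, and Defb3 on NT 4, TS 2 and WB 3.

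Of the 19 varying genes of other antimicrobial proteins, 11 were called in WB against TS, of which 3 rose and 8 fell. Over the array 88.8% of varying probe sets were called in this comparison, 47.1% higher and 41.7% lower, so the list was called less often. The median difference of the 19 was -0.28 against 0.09 over all varying probe sets, beside a beta-actin 3' minus 5' difference 5.53 higher. S100a9 fell by 3.33 (SE 0.82, adjusted p = 0.00315), whereas S100a8 differed by -0.48 (SE 0.81, adjusted p = 0.755). The protease inhibitor Slpi, named after its values were seen, fell by 2.65 (SE 0.27, adjusted p = 5.2e-07). Wfdc12 fell by 3.63 (SE 0.22, adjusted p = 6.8e-10). The Lyz1 and Lyz2 probe sets, which both fell in TS against NT, parted here. Lyz1 rose by 0.27 (SE 0.10, adjusted p = 0.0341) and Lyz2 fell by 3.51 (SE 0.13, adjusted p = 1.8e-12). The cause of this difference between probe sets was not tested.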
